A study of Mus musculus with 7 samples.

Results

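Interferon-inducible GTPases are large GTP-binding proteins with which single cells defend themselves against bacteria, parasites and viruses, and 10 of them were followed in primary hepatocytes with and without WDR6. They were picked by gene symbol, as 5 guanylate-binding proteins (*Gbp2*, *Gbp3*, *Gbp6*, *Gbp7* and *Gbp9*), 4 immunity-related GTPases (*Irgm1*, *Irgm2*, *Igtp* and *Iigp1*) and the Mx protein *Mx2*. All 10 had a row of read counts among the 14819 rows of the table, and all 10 passed the filter on low counts. Hepatocytes, the parenchymal cells of the liver, came from male mice by collagenase perfusion, were grown in William's E medium with 10% fetal bovine serum, left overnight and given no treatment. The comparison was between WT mice (n = 4) and whole-body *Wdr6* knockout mice (WDR6-WKO, n = 3), in which CRISPR–Cas9 had removed exon 2 of *Wdr6* in every tissue and not in hepatocytes alone. The study used it to look for genes downstream of WDR6, a WD-repeat protein that it examined in lipogenesis. The methods give a default age for the C57BL/6J mice of the study but no age at isolation for these donors, and the replicates are biological by the study's methods.

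Interferons are secreted proteins that signal through receptors and JAK kinases to transcription factors. Type I interferons act largely through a complex with STAT2 and IRF9 that binds the interferon-stimulated response element (ISRE), and interferon-γ acts largely through the gamma-activated site (GAS). Guanylate-binding proteins (GBPs) and immunity-related GTPases (IRGs) gather on the membranes around intracellular pathogens and break them, and Mx proteins trap viral nucleoproteins. In mice, hepatocytes as well as immune cells respond to interferons in this way.

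The libraries held between 17816913 and 23668940 counted reads, and a level in CPM is a gene's count scaled to a common library size with the trimmed-mean (TMM) factors of edgeR. *Wdr6* was at 44 ± 4.03 CPM in the WT libraries (s.d., n = 4) and at 2.38 ± 0.179 CPM in those of WDR6-WKO (n = 3), a log2 fold change of -4.20, so each library matched its label. Spearman correlations within a genotype were between 0.992 and 0.996. WDR6-WKO replicate 3 stood apart from the other libraries of its genotype, with a chi-square per gene of 14.4 and 16.2 against them, where no other pair within a genotype exceeded 8.34. All 10 hepatocyte markers were in the table, from *Alb*, which encodes albumin, at 7366 CPM to *Tat*, a liver enzyme of tyrosine breakdown, at 1.5 CPM in WT. The cholangiocyte markers *Spp1* and *Krt19* stood at 2980 and 148 CPM. In such a culture, fewer cells of a type and less RNA per cell cannot be told apart.

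The promoter sequences are shown first because they hold the elements through which this family is known to be induced. RefSeq windows of the GRCm38.p6 build, from 250 bases before to 50 bases after the transcription start, were at hand for 6 of the 10 genes. These were *Gbp2*, *Gbp3*, *Gbp7*, *Irgm1*, *Irgm2* and *Igtp*, and windows for *Gbp6*, *Gbp9*, *Iigp1* and *Mx2* were not used here. Each line runs 5′ to 3′ along the strand of the gene. Capitals mark matches on either strand to the ISRE core GAAANNGAA and to the GAS TTCNNNGAA. The stretches are chr3:142620594-142620623 for *Gbp2*, chr3:142559934-142560025 for *Gbp3* and chr3:142530226-142530335 for *Gbp7* on the plus strand, chr11:48871421-48871530 for *Irgm1* on the minus strand, and chr11:58214867-58214976 for *Irgm2* and chr11:58199446-58199555 for *Igtp* on the plus strand.
Gbp2: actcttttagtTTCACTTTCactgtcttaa
Gbp3: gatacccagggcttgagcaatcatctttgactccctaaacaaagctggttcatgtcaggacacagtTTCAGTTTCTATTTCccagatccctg
Gbp7: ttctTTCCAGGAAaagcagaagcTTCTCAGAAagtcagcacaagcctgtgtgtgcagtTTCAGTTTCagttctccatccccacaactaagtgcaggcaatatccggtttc
Irgm1: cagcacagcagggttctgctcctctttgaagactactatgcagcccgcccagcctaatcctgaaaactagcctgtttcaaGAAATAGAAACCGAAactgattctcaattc
Irgm2: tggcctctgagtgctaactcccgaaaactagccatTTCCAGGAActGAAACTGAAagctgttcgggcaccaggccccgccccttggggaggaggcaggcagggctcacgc
Igtp: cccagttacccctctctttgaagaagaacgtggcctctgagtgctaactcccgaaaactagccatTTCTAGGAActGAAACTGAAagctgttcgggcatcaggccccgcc

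All 6 genes held an ISRE core in at least 1 window, against 9.76% of the 27025 genes with a window. Every match began between 64 and 24 bases before the RefSeq start. *Gbp3* and *Irgm1* each carried 2 matches that overlap by 3 bases. A GAS was found in 3 of the 6, *Gbp7*, *Irgm2* and *Igtp*, against 9.55% of all genes with a window, and both motifs together occurred in 1.24% of genes. In *Irgm2* and *Igtp*, the GAS and the ISRE core lay 2 bases apart, whereas 26 bases separated the nearest pair in *Gbp7*. The windows of *Irgm2* and *Igtp*, neighbours on chromosome 11, shared a run of 61 bases and were identical at 68.1% of 270 aligned bases, while no other pair of the 6 shared a run over 13 bases. The positions hold for the RefSeq starts used. *Gbp3* has another RefSeq window, at chr3:142560106-142560405, which held 0 matches to the ISRE core and 0 to the GAS. In the GENCODE annotation, *Gbp2*, *Irgm1* and *Irgm2* begin farther upstream, at 3:142620602, 11:48871683 (minus strand) and 11:58199618. By those starts, their matches lie within the gene. These are matches of letters in short windows, and no binding was measured.

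**Figure D1:**
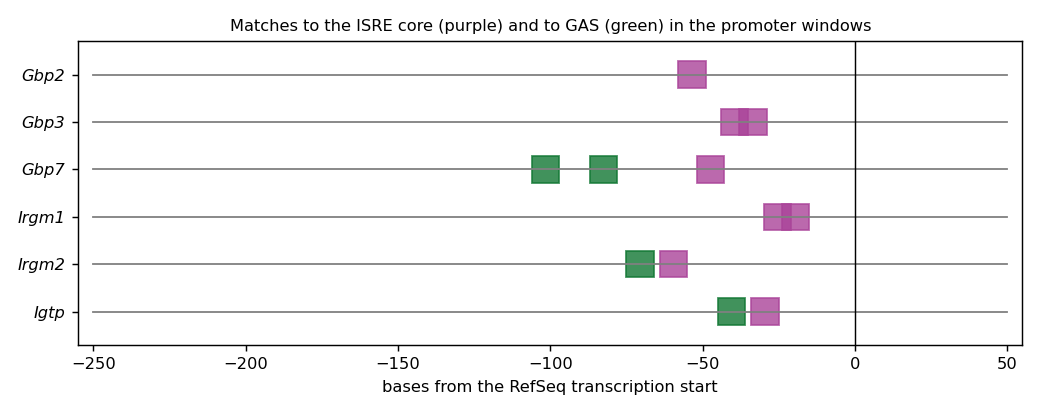
Matches to the ISRE core (purple) and to GAS (green) in the RefSeq promoter windows of 6 GTPase genes, with the horizontal axis in bases from the transcription start. All 6 genes hold an ISRE core within 64 bases before the RefSeq start, and *Gbp7*, *Irgm2* and *Igtp* also hold a GAS upstream of it. Another RefSeq window of *Gbp3*, with 0 matches, is not drawn.

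Of the 10 GTPases, 8 rose in WDR6-WKO hepatocytes, 1 fell and 1 did not pass the test at an adjusted p of 0.05 (quasi-likelihood test of edgeR, Benjamini-Hochberg adjusted over the 14779 genes tested). Over all genes tested, 6.65% rose and 6.18% fell. The median log2 fold change of the 10 was 0.66, beside 0.01 over all genes. For the 8 genes that rose, every WDR6-WKO library lay above every WT library, as it did for 11.8% of all genes. *Iigp1* was the gene that fell, with every WDR6-WKO library below every WT library, which held for 11.7% of all genes. By the thresholds the study used, a log2 fold change past 0.35 in size and an unadjusted p under 0.05, 8 were again higher, beside 6.42% of all genes, and *Iigp1* missed the limit on size.

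**Figure D2:**
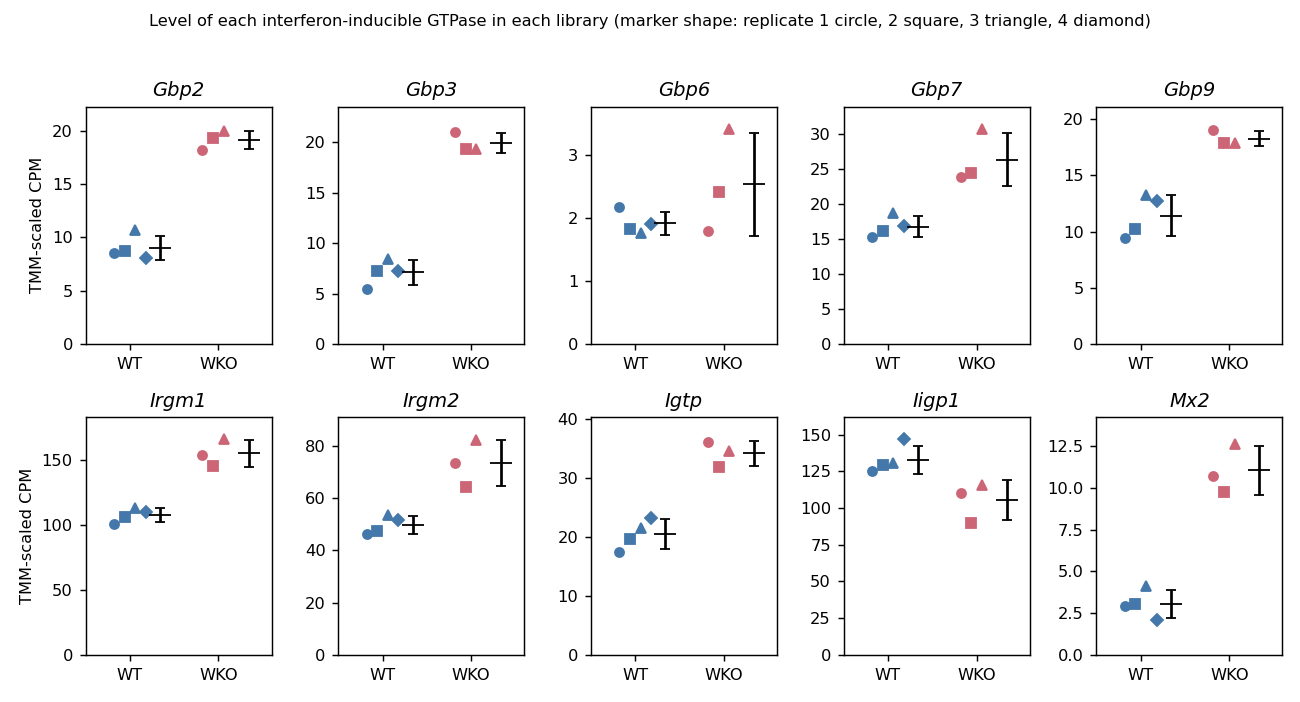
Level of the 10 GTPases in each library, in TMM-scaled CPM from 0, with WT in blue (n = 4), WDR6-WKO in red (n = 3) and the mean ± s.d. in black. WDR6-WKO libraries lie above WT libraries for 8 genes, overlap them for *Gbp6* and lie below them for *Iigp1*.

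Among the GBPs, *Gbp3* and *Gbp2* changed most. *Gbp2*, which coats the vacuoles of *Toxoplasma* and of bacteria, stood at 8.52, 8.69, 10.7 and 8.08 CPM in WT replicates 1 to 4 and at 18.2, 19.3 and 19.9 CPM in WDR6-WKO replicates 1 to 3. *Gbp3* held 5.495, 7.23, 8.46 and 7.28 CPM in WT and 21.03, 19.3 and 19.4 CPM in WDR6-WKO. For both genes the genotypes were far apart, and the spread within WDR6-WKO was smaller than that within WT. The fold changes were 2.13 for *Gbp2* (log2 1.09, SE 0.104, adjusted p = 4.65e-06 in edgeR's test) and 2.80 for *Gbp3* (log2 1.49, SE 0.118, adjusted p = 8.19e-07). *Gbp2* lies at 3:142620602-142638008 and *Gbp3* at 3:142560026-142573209 (GRCm38), in a cluster with *Gbp7* on the plus strand. Only 2.03% of the 50-base sequences of *Gbp2* and 3.75% of those of *Gbp3* occur in transcripts of other genes, so few of their reads could have been counted for a paralog.

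*Gbp7* and *Gbp9* rose less. *Gbp7*, which has been tied to the assembly of the phagocyte oxidase, was at 15.3, 16.1, 18.7 and 16.9 CPM in WT and at 23.9, 24.4 and 30.6 CPM in WDR6-WKO. Its log2 fold change was 0.65 (SE 0.1, adjusted p = 0.000509 by edgeR), with replicate 3 the highest in both genotypes. *Gbp9* was at 9.43, 10.3, 13.2 and 12.7 CPM in WT and at 19.1, 17.9 and 17.9 CPM in WDR6-WKO, a log2 fold change of 0.68 (SE 0.113, adjusted p = 0.000885). The 3 WDR6-WKO libraries of *Gbp9* were almost level, and the lowest stood well above the highest WT library. *Gbp7* is at 3:142530342-142550149 and shares 12.7% of its 50-base sequences with other genes, mostly with *Gm43802*, whose exons overlap 11.3% of its exon bases on the same strand. *Gbp9* is at 5:105077630-105139539 on the minus strand and shares 8.05%, mostly with *Gbp8* and *Gbp4*.

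*Gbp6* had the lowest level per kilobase of the 10 and did not pass the test. Its levels were 2.17, 1.83, 1.76 and 1.91 CPM in WT and 1.79, 2.41 and 3.41 CPM in WDR6-WKO, from 33 to 61 counts per library. The genotypes overlapped, because WDR6-WKO replicate 1 lay at the WT level while replicate 3 was the highest of all 7 libraries. The log2 fold change was 0.38, with a 95% interval from -0.11 to 0.87 and an adjusted p of 0.303 by edgeR. That interval includes 0 as well as the changes of *Gbp7* and *Gbp9*. The s.d. was 0.179 CPM in WT and 0.817 CPM in WDR6-WKO. The count of *Gbp6* is also uncertain, since 70.7% of its 50-base sequences occur in other genes, chiefly *Gm43302* and *Gbp10*. *Gm43302* overlaps 29% of its exon bases at 5:105270702-105293698.

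The 3 regulatory IRGs rose together. *Irgm1*, *Irgm2* and *Igtp* (also called Irgm3) carry methionine in place of the usual lysine in the GTP-binding loop, sit on the cell's own membranes and hold effector IRGs in their inactive form there. *Irgm1* was at 101, 106, 113 and 110 CPM in WT and at 154, 146 and 166 CPM in WDR6-WKO. *Irgm2* stood at 46.2, 47.5, 53.5 and 51.7 CPM in WT and at 73.6, 64.4 and 82.3 CPM in WDR6-WKO. *Igtp* showed 17.4, 19.6, 21.5 and 23.3 CPM in WT and 36.1, 31.9 and 34.5 CPM in WDR6-WKO. No WT library reached the lowest WDR6-WKO library for any of the 3. The changes were of similar size, at log2 0.53 for *Irgm1* (SE 0.0576, adjusted p = 1.88e-05 by edgeR), 0.56 for *Irgm2* (SE 0.0789, adjusted p = 0.000218) and 0.74 for *Igtp* (SE 0.092, adjusted p = 6.9e-05), and their 95% intervals overlapped. With 2978 to 3715 counts per WDR6-WKO library, *Irgm1* rested on the most reads of the genes that rose.

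*Irgm1* lies at 11:48861968-48871683 on the minus strand and shares 0.31% of its 50-base sequences with other genes. *Irgm2* (11:58199618-58222782) and *Igtp* (11:58199556-58207591) are neighbours on the plus strand whose exons overlap by 162 bases, 8.01% of the exon bases of *Igtp*. *Irgm2* shares 7.77% and *Igtp* 11.8% of their 50-base sequences, mostly with each other, so part of their counts could have been split between them.

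*Iigp1* went the other way. It encodes Irga6, an effector IRG with the usual lysine in the GTP-binding loop that loads onto parasite vacuoles, and a liver-specific promoter besides the interferon-inducible one is known in mice. Its levels were 125, 129, 130 and 147 CPM in WT and 110, 89.6 and 116 CPM in WDR6-WKO. The groups did not overlap, but the gap between the highest WDR6-WKO and the lowest WT library was only -0.11 on the log2 scale. The log2 fold change was -0.34 (SE 0.081, 95% interval from -0.51 to -0.16, adjusted p = 0.0142 by edgeR), a fold of 0.791. *Iigp1*, at 18:60376027-60392634 on the plus strand, shares 1.69% of its 50-base sequences with other genes and was counted with 1897 to 2923 reads per library, so counting error was small beside the spread between replicates.

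The contrast between *Iigp1* and the regulatory IRGs can be read within each library, without any scaling between libraries. The log2 ratio of *Iigp1* counts to the summed counts of *Irgm1*, *Irgm2* and *Igtp* was -0.39, -0.42, -0.53 and -0.34 in WT and -1.26, -1.43 and -1.29 in WDR6-WKO. The ratio was lower in every WDR6-WKO library, by a difference of -0.91. This ratio was chosen after the values had been seen. Its separation of the genotypes follows from the levels of the single genes given above, so it is not a separate test. Of the counts of all 10 genes, *Iigp1* took 37.5, 36.9, 34.7 and 38.5% in the WT libraries and 23.5, 21.1 and 23.0% in the WDR6-WKO libraries.

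Protein was not measured, and *Mx2*, a gene of the dynamin-like Mx family, had the largest change in RNA of the 10. It stood at 2.92, 3.04, 4.15 and 2.06 CPM in WT and at 10.7, 9.73 and 12.6 CPM in WDR6-WKO, which is 3.62-fold (log2 1.86, SE 0.177, adjusted p = 4.65e-06 by edgeR). WT replicates 3 and 4 differed by 0.86 on the log2 scale of CPM plus 0.5, the widest spread of any of the 10 within WT on that scale, from 41 to 78 counts. The step to the WDR6-WKO libraries was larger than that spread. *Mx2* is at 16:97535308-97560900 on the plus strand and shares 4.38% of its 50-base sequences, with *Mx1*. For 9 of the 10 genes the exact two-sided permutation test of the single gene gave p = 0.0286, and for *Gbp6* p = 0.2. The value 0.0286 is the smallest that 35 arrangements of 4 against 3 libraries allow, and 17.7% of all genes tested reached it.

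**Figure D3:**
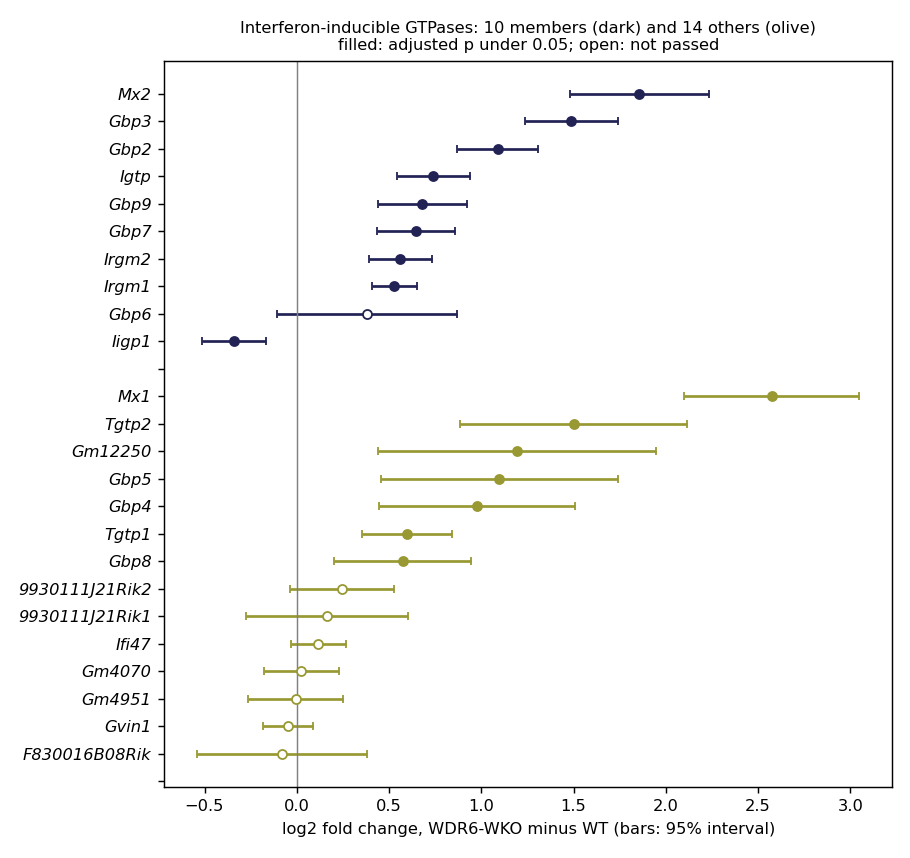
Log2 fold change, WDR6-WKO minus WT, of the 10 GTPases (dark) and of 14 other interferon-inducible GTPases (olive), with 95% intervals and filled points at an adjusted p under 0.05. *Mx2* at 1.86 leads the 10, *Iigp1* at -0.34 lies below 0, and *Mx1* at 2.57 leads the others.

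Per kilobase of exon, the levels of the 10 genes can be ordered. In WT, *Iigp1* was first at 22.8 ± 1.63 CPM per kb (s.d., n = 4), followed by *Irgm1* at 18.6 ± 0.921, *Irgm2* at 13.5 ± 0.926 and *Igtp* at 10.1 ± 1.24 CPM per kb. The 4 IRGs thus stood above all GBPs, of which *Gbp2* was at 3.58 ± 0.46 and *Gbp7* at 2.98 ± 0.259 CPM per kb. Below them came *Gbp9* at 2.21 ± 0.358, *Gbp3* at 2.18 ± 0.374, *Mx2* at 0.842 ± 0.237 and *Gbp6* at 0.322 ± 0.0301 CPM per kb. The WT ranges of *Gbp2* and *Gbp7* overlapped, as did those of *Gbp9* and *Gbp3*, and those pairs have no order beyond their spread. In WDR6-WKO, *Irgm1* was first at 26.8 ± 1.77 CPM per kb (n = 3), *Irgm2* next at 19.9 ± 2.42 and *Iigp1* after it at 18.1 ± 2.36 CPM per kb. The WDR6-WKO range of *Iigp1*, 15.4 to 19.9 CPM per kb, overlapped those of *Irgm2* and *Igtp*. *Gbp3* rose to 6.1 ± 0.296 CPM per kb, past *Gbp7* at 4.68 ± 0.67.

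Within a genotype, the order of the libraries was alike for most of the 10 genes but not for all. Relative to its WT mean on the log2 scale of CPM plus 0.5, the median of the 10 was -0.10, -0.04, 0.13 and 0.04 in WT replicates 1 to 4. WT replicate 1 was the lowest WT library for 7 of the 10 genes, and WT replicate 3 the highest for 7. *Gbp6* had the opposite order, highest in replicate 1 and lowest in replicate 3, and *Gbp2* and *Mx2* were lowest in replicate 4. In WDR6-WKO replicates 1 to 3 the median was 0.65, 0.58 and 0.74, and replicate 3, the library that stood apart over all genes, was the highest for 7 of the 10, with replicate 1 highest for the other 3. Without that library, 8 genes still rose and *Iigp1* still fell, with a median of 0.61 on the log2 scale and *Iigp1* at -0.41. In that fit, 14.5% of all genes rose and 14.1% fell. For the median of the 10, the difference between the genotypes exceeded the differences within them.

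**Figure D4:**
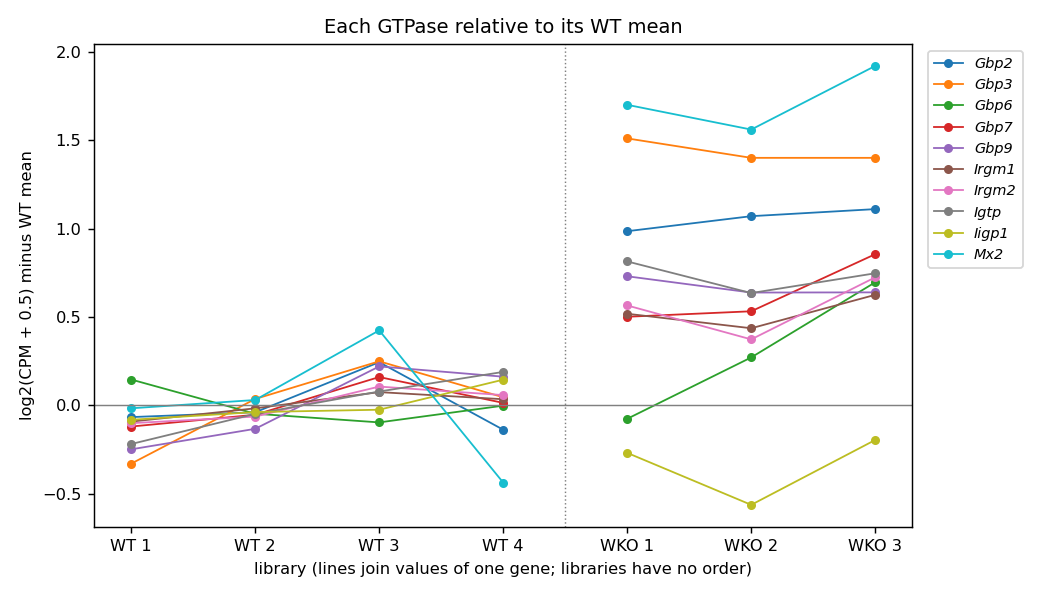
Level of each GTPase in each library on the log2 scale of CPM plus 0.5, minus its WT mean, with a line for each gene and libraries along the horizontal axis in no order. Mx2, Gbp3 and Gbp2 are highest in all 3 WDR6-WKO libraries, and Iigp1 is below its WT mean in all 3.

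Outside the 10, other GTPases that interferons induce were taken from a list of 24 symbols, older names included, of which 14 were in the table. Of these, 7 rose, 0 fell and 7 did not pass, beside 6.65% higher and 6.18% lower over all genes. The median of the 14 was 0.41 on the log2 scale. DESeq2 called 6 of them higher and 0 lower, 3 rose without WT replicate 2 or without WT replicate 4, and 4 rose without WDR6-WKO replicate 1 or 2. *Mx1* RNA rose from 0.808 ± 0.22 to 4.83 ± 0.82 CPM (log2 2.57, SE 0.223, adjusted p = 1.84e-06 by edgeR), and its protein was not measured. *Gbp4* rose from 1.003 to 1.998 CPM (log2 0.98, adjusted p = 0.0179), *Gbp5*, a GBP that promotes inflammasome assembly, from 0.593 to 1.28 CPM (log2 1.10, adjusted p = 0.0256), and *Gbp8* by a log2 fold change of 0.57 (adjusted p = 0.043). Among effector IRGs, *Tgtp1* rose from 9.05 to 13.7 CPM (log2 0.60, adjusted p = 0.0026), and *Tgtp2* by a log2 fold change of 1.5 (adjusted p = 0.00281), though 81.2% and 86.6% of their 50-base sequences occur in other genes, mostly in each other. *Gm12250*, which encodes Irgb10, had a log2 fold change of 1.19 (adjusted p = 0.0403) with overlapping genotypes.

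Among these 14, no gene fell as *Iigp1* did. *Gm4951*, the gene with which *Iigp1* shares most sequence, had a log2 fold change of -0.01 (adjusted p = 0.984 by edgeR), and *Ifi47*, an effector IRG, one of 0.12 (adjusted p = 0.302). *F830016B08Rik*, *9930111J21Rik1* and *9930111J21Rik2* also did not pass, at -0.08, 0.16 and 0.24. The very large interferon-inducible GTPases *Gvin1* and *Gm4070*, which share nearly all of their sequence with other genes, stood at -0.05 and 0.02. *Gbp2b*, *Gbp10* and *Gbp11* were not analysed here.

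Relatives of the same superfamily that interferons are not known to induce, such as dynamins, atlastins, mitofusins and EHD proteins, were read beside them. Of the 13 tested, 0 rose and 3 fell, beside 6.65% and 6.18% of all genes. The median of the 13 was -0.08 on the log2 scale. Without adjustment, 0 passed p under 0.05 in the higher and 4 in the lower direction. A p of 0.0492 by edgeR ranked 4137th of the 14779 genes tested, both directions together. DESeq2 and limma-voom called 0 higher and 4 lower. With library sizes alone, or without WT replicate 1, 3 or 4 or WDR6-WKO replicate 1 or 2, only 1 was lower. The 3 were *Atl3*, an atlastin that shapes the endoplasmic reticulum (log2 -0.21, adjusted p = 0.0303 by edgeR), *Ehd2*, which stabilises caveolae (log2 -0.23, adjusted p = 0.0296), and *Irgq*, a divergent IRG (log2 -0.22, adjusted p = 0.0204).

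Upstream of the GTPases, none of the 21 interferon genes listed was in the table, and the table holds no row with fewer than 50 counts over the 7 libraries. Of 9 receptor subunits and JAK kinases tested, 0 rose and 3 fell, by edgeR, DESeq2 and limma-voom alike. Over all genes, 6.65% rose and 6.18% fell by edgeR. At an unadjusted p under 0.05, which many genes of the whole table passed, 1 was higher. By edgeR, a p of 0.0492 ranked 4137th of the 14779 genes tested. Among those that fell, *Ifnar1*, a subunit of the type I receptor, had a log2 fold change of -0.22 (adjusted p = 0.0232 by edgeR). *Ifngr1*, a subunit of the interferon-γ receptor, fell by -0.20 (adjusted p = 0.0132) and *Jak2* by -0.29 (adjusted p = 0.00458).

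Among 10 transcription factors of the pathway, 4 rose and 1 fell, beside 6.65% and 6.18% of all genes. Among those that rose, *Stat2* and *Irf9* encode subunits of the complex that binds the ISRE. *Stat2* rose from 59.4 ± 2.39 to 93.2 ± 5.88 CPM (log2 0.65, adjusted p = 3.02e-06 by edgeR) and *Irf9* from 33.2 ± 2.08 to 50.3 ± 3.35 CPM (log2 0.60, adjusted p = 3.75e-05). *Irf7*, which amplifies type I interferon production, rose from 67.5 ± 5.14 to 128 ± 20.4 CPM (log2 0.93, adjusted p = 7.71e-05). *Irf1*, which is induced by interferon-γ and acts on GBP genes, stood at 23.3 ± 1.8 CPM in WT and 23.7 ± 1.77 CPM in WDR6-WKO, a log2 fold change of 0.02 (adjusted p = 0.896). *Irf2*, which opposes IRF1, had one of -0.23 (adjusted p = 0.0444), and *Irf3*, *Irf5*, *Irf8* and *Stat3* did not pass the test.

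Of 10 feedback regulators, 2 rose and 0 fell, beside 6.65% and 6.18% of all genes. *Usp18*, which shuts off the type I receptor, rose from 34.1 ± 1.47 to 70.1 ± 4.27 CPM (log2 1.04, adjusted p = 5.64e-08 by edgeR), and *Isg15*, a ubiquitin-like protein that stabilises USP18 in human cells, from 6.75 ± 1.73 to 24.7 ± 5.93 CPM (log2 1.88, adjusted p = 0.00042). *Socs1*, an inhibitor of JAK kinases, had a log2 fold change of 0.62 and did not pass (adjusted p = 0.149). 

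Partners of the GTPases at the vacuole were taken from ubiquitin ligases, autophagy proteins and their adaptors. Of 17 tested, 4 rose and 1 fell, beside 6.65% and 6.18% of all genes. *Rnf213*, a very large ubiquitin ligase, rose from 358 ± 30.6 to 597 ± 43.2 CPM (log2 0.74, adjusted p = 3.25e-06 by edgeR), the autophagy receptor *Sqstm1* from 1278 ± 92.2 to 1903 ± 265 CPM (log2 0.57, adjusted p = 0.000988), and *Ube2l6*, the conjugating enzyme for ISG15, and *Trim21*, a ubiquitin ligase, by log2 0.50 and 0.45. The autophagy receptor *Nbr1* had a log2 fold change of -0.20 (adjusted p = 0.0138). None of the ATG8-family genes and their conjugation enzymes, such as *Gabarap*, *Map1lc3b*, *Atg5* and *Atg7*, passed the test. Of 8 inflammasome genes 1 rose, *Pycard*, the ASC adaptor, at log2 0.80 (adjusted p = 0.0467), and *Casp4*, which encodes caspase-11, had a log2 fold change of 0.40 (adjusted p = 0.147). Of 7 genes that prenylate GTPases or keep them soluble 1 rose, *Arhgdib*, at log2 0.35 (adjusted p = 0.0341). With 6.65% of all genes higher, 1 call in lists this short says little about the lists.

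**Figure D5:**
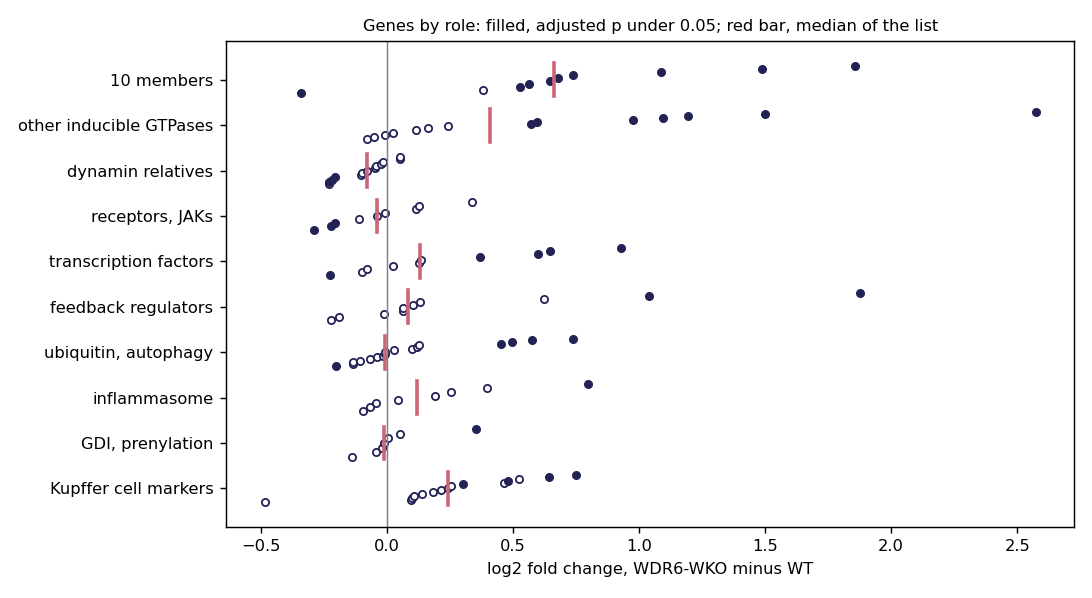
Log2 fold change, WDR6-WKO minus WT, of single genes grouped by role, with filled points at an adjusted p under 0.05 and red bars at the median of each group. The 10 GTPases have a median of 0.66, the other inducible GTPases 0.41, the dynamin relatives -0.08 and the Kupffer cell markers 0.24.

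Markers of other liver cells were read beside these values, since macrophages also make interferon-inducible GTPases. Kupffer cells are the resident macrophages of the liver. Of their 15 markers, all in the table, 4 rose and 0 fell, beside 6.65% and 6.18% of all genes. Those that rose were *Fcgr1*, *Lyz2*, *C1qc* and *C1qb*, at log2 fold changes of 0.75, 0.64, 0.48 and 0.30. The median of the 15 was 0.24. Of the 15, 14 had a positive log2 fold change, where the median over all genes was 0.01. At an unadjusted p under 0.05, 9 were higher and 1 lower, and DESeq2 called 5 higher. By edgeR, a p of 0.0492 ranked 4137th of the 14779 genes tested, both directions together. *Clec4f*, a marker particular to these cells, had a log2 fold change of 0.10 (adjusted p = 0.311 by edgeR) and *Timd4*, the negative one, -0.48 (adjusted p = 0.088). Their summed level was 929.5 to 1038 CPM in WT and 1080 to 1285 CPM in WDR6-WKO. By library, relative to WT, the median of the 15 markers was -0.09, -0.02, 0.04 and 0.09 in WT replicates 1 to 4. In WDR6-WKO replicates 1 to 3 it was 0.18, 0.34 and 0.08. The median of the 10 GTPases was -0.10, -0.04, 0.13 and 0.04 in WT and 0.65, 0.58 and 0.74 in WDR6-WKO. Of the genes outside the 10, the marker *Lyz2* had the profile closest to the median of the GTPases. Whether the markers and the GTPases go together was not tested.

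Hepatocyte markers moved the other way, with 0 of 10 higher and 4 lower, *Apoa1*, *Cps1*, *Cyp2e1* and *Hnf4a* at log2 fold changes of -0.69, -0.69, -0.34 and -0.27. The summed level of the 10 was 13620 to 16190 CPM in WT and 12570 to 14500 CPM in WDR6-WKO. Over all genes 6.65% rose and 6.18% fell, the shares to set beside this list and those below. None of 9 endothelial markers passed edgeR's test after adjustment, with 0 called by DESeq2 or limma-voom. At an unadjusted p under 0.05, 1 was lower, *Emcn*, whose p of 0.0492 by edgeR ranked 4137th of the 14779 genes tested. Of 9 stellate cell markers 2 rose, *Dcn* and *Acta2*, and of 5 cholangiocyte markers 2 rose, *Sox9* and *Spp1*, with 0 lower in either list. All 11 T and NK cell markers, all 5 neutrophil markers and 4 of 5 B cell markers, among them *Cd79a*, *Cd79b* and *Ms4a1*, had no row in the table. The part of these cell types in the changes of the GTPases was not tested.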

How the data were processed

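Hepatocyte RNA of 4 WT and 3 WDR6-WKO mice was sequenced. The authors deposited raw read counts per gene symbol. The submitters' processing notes name Bowtie2 2.2.3 and the mm10 build, whereas the counting tool, annotation and strand setting were not given in the sources used here. The table has 14819 rows with 14817 different identifiers and no row total under 50, and 21 rows whose symbols had turned into dates were given no gene name. Library totals were 17816913 to 23668940 counts, at which the spread between replicates (biological coefficient of variation 7.4%) exceeded counting error for all but low genes.

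The counts were tested with edgeR 4.0.16 in R 4.3.3 (TMM scaling, filterByExpr, robust quasi-likelihood test, no covariate), with Benjamini-Hochberg adjustment over 14779 genes. Standard errors were derived from the F statistic. Single genes were also tested by an exact permutation test of mean log2 CPM over 35 arrangements. On simulated data, 168 of 200 genes changed by a log2 of 1 were recovered in the right direction, with 7 false calls among 14701 genes. Alternatives were DESeq2 1.42.0, limma-voom (limma 3.58.1), other size factors, other filters, the replicate number as a block, other call thresholds, and each library left out.

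Samples with the same replicate number come from different mice, and their deviations from the group means had correlations of 0.03 to 0.07, so the numbers do not pair them. The members and lists were chosen with earlier results of these data known. Named are the 10 members, *Wdr6*, every gene of short lists or the genes past the threshold of longer ones, markers past the threshold or absent, and the 5 genes with the profile closest to the median of the members. *Clec4f*, *Timd4*, *Tat*, *Krt19*, the non-significant GTPases, and the autophagy genes without a call were named after their values were seen. Positions, exon lengths, exon overlaps and the share of 50-base sequences found in other genes came from GENCODE M21 on GRCm38, and promoter windows from RefSeq on GRCm38.p6. Protein sequences were not used here, and some genes of the lists are counted but not reported singly.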

Additional observations from a re-analysis of the deposited data

Results flagged for a closer look

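Of 102 genes examined (*Wdr6*, the 10 GTPases, the other GTPases and pathway genes tested and the 5 genes of nearest profile, without the other cell type markers), 7 had 1 WT library farther from the others than Dixon's 95% limit for 4 samples allows, and chance flags about 1 in 20 groups. The gap to the nearest library, as a share of the range over the 4 WT libraries, was 0.843 for *Ifi47*, 0.857 for *Ube2l6*, 0.852 for *Casp4*, 0.853 for *Fntb*, 0.971 for *Pggt1b*, 0.853 for *Lyz2* and 0.848 for *Egr2*. None of the 10 GTPases was among them.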

How the results depend on the processing

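Each of the 10 GTPases kept its direction and its side of the threshold under all 14 alternatives. The highest adjusted p of *Iigp1* was 0.0482, without WT replicate 4, so its fall is the least firm call, and its log2 fold change ran from -0.41 to -0.24. Leaving out 1 library at a time gave medians of the 10 from 0.60 to 0.73, and *Gbp6* from 0.12, without WDR6-WKO replicate 3, to 0.59. With the replicate block, 8 rose and 1 fell, with a median of 0.70, and no call on the 10 changed. The other inducible GTPases that rose (main 7) numbered 5 with the replicate block and 5 with at least 10 counts required in every library. With 1 library left out they numbered 3 to 6, with 3 without WT replicate 2 or 4. Dynamin relatives lower numbered 1 with library sizes alone and 1 to 4 with a library left out (main 3). Over the other pathway lists, 12 genes rose and 5 fell, and 1 to 10 fell with a library left out, the most without WDR6-WKO replicate 3. Over all genes, 570 to 2150 rose and 462 to 2083 fell, both highest without WDR6-WKO replicate 3 and lowest without replicate 2. By the study's thresholds 0 of the 10 GTPases and 583 of all genes were lower. The ratio of *Iigp1* to the regulatory IRGs, chosen after seeing the data, ranged from -0.94 to -0.86. The causes of these differences were not tested, and fits without a library also had fewer samples. Depth limits genes such as *Gbp6*, with 33 to 61 counts per library. It also limits *Gbp5* and *Tgtp2*, with 8 to 15 and 9 to 10 counts per WT library.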

Other observations

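Outside the GTPases, the genes whose profile over the 7 libraries lay closest to the median profile of the 10 were *Lyz2*, *Rnf213*, *Irf9*, *Egr2* and *Ccl9*, at root mean square distances of 0.0426, 0.0637, 0.0744, 0.075 and 0.0806 on the log2 scale. These genes were picked over the libraries of both genotypes, so a rise near the median of the 10 follows from the choice. *Lyz2*, the lysozyme of macrophages, went from 49.4 ± 2.03 to 77.1 ± 2.41 CPM (log2 0.64). *Ccl9*, a chemokine made by macrophages, went from 77.4 ± 3.8 to 124 ± 2.72 CPM (log2 0.68). *Egr2*, an early growth response transcription factor, went from 4.32 ± 0.429 to 6.99 ± 0.473 CPM (log2 0.69). The likeness rests on 7 libraries of 2 genotypes and describes profiles, not shared control.

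In the RefSeq windows of *Tgtp1* and *Tgtp2*, as in those of *Irgm2* and *Igtp*, a GAS and an ISRE core lay 2 bases apart. The 4 genes rose, with log2 fold changes of 0.60, 1.5, 0.56 and 0.74, and *Tgtp1* and *Tgtp2* share most of their sequence. *Gbp2* and *Gbp3*, without a GAS in their windows, rose by 1.09 and 1.49. *Gbp7*, with 26 bases between the motifs, rose by 0.65. Whether the spacing goes with the change was not tested.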
